A study of Mus musculus with 12 samples.

Results

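The Wnt ligands, their Frizzled (Fzd) receptors and 2 families of secreted antagonists, the secreted frizzled-related proteins (Sfrp) and the Dickkopf proteins (Dkk), were followed in the cervix of pregnant mice. Members were all genes whose platform symbol was Wnt, Fzd, Sfrp or Dkk followed by a number and, at most, the letter a or b. This gave 37 of the 18194 genes with a probe set of 1 symbol: 19 Wnt, 10 Fzd, 4 Sfrp and 4 Dkk genes. Cervical RNA came from CD1 mice at gestation day 15; the labels do not say whether that is the day of injection or of collection. In 6 samples the dams had received MPA, 1 mg per dam by subcutaneous injection, and in 6 controls the same volume of ethanol (EtOH), the vehicle, for 48 h. MPA is the usual abbreviation of medroxyprogesterone acetate, a synthetic progestin that also binds the glucocorticoid receptor; the labels give only the abbreviation. No genotype other than the CD1 stock is named, and whether the 6 samples of a group are 6 dams is not stated, so p-values cover the spread among samples, part of which can be technical.

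Wnt proteins are secreted lipid-modified ligands that bind Frizzled receptors on nearby cells. With the co-receptors Lrp5 and Lrp6 they stabilise beta-catenin, which acts with TCF/LEF factors on target genes; with other co-receptors such as Ror2 they act on cell shape and planar polarity instead. Sfrp proteins carry a Frizzled-like domain and bind Wnt ligands outside the cell, whereas Dkk proteins of the inhibitory type block Lrp5 and Lrp6. In the mouse reproductive tract Wnt4, Wnt5a and Wnt7a are needed for the growth and patterning of the uterus, and Wnt signals pass between its stroma and epithelium.

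Of the 37 members, 14 had a log2 signal above 4 on at least 6 of the 12 arrays and were tested, against 8795 of the 18194 genes in all. The ligands were the family with the lowest share: 2 of 19, Wnt4 and Wnt5a, were past this filter. The receptors had 7 of 10 past it, Fzd1 to Fzd7. Of the antagonists, Sfrp1, Sfrp2 and Sfrp4 (3 of 4) and Dkk2 and Dkk3 (2 of 4) were past it. Of these 14 members, 13 were above a log2 signal of 4 on all 12 arrays, and Dkk2 was on 10.

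The 23 members that were not tested were Wnt1, Wnt2, Wnt2b, Wnt3, Wnt3a, Wnt5b, Wnt6, Wnt7a, Wnt7b, Wnt8a, Wnt8b, Wnt9a, Wnt9b, Wnt10a, Wnt10b, Wnt11 and Wnt16 among the ligands, Fzd8, Fzd9 and Fzd10 among the receptors, and Sfrp5, Dkk1 and Dkk4. For 22 of them no array exceeded a log2 signal of 4, and their values lay between 2.27 and 3.47. In 14 of these 22 the 12 arrays spanned less than 0.1 on the log2 scale, which is the floor that the background correction leaves. A signal at that floor says only that the probe set gave nothing above background. The exception, just outside the filter, was Wnt5b, a ligand close to Wnt5a in sequence, with 5 arrays above 4. Its log2 signal was lowest at 3.15, with a median of 4.47 and a highest value of 4.78 after MPA, and 3.33, 3.84 and 4.25 after vehicle, so 4 MPA arrays and 1 vehicle array were above the filter. Dkk2, just inside it, is described with the antagonists.

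**Figure D1:**
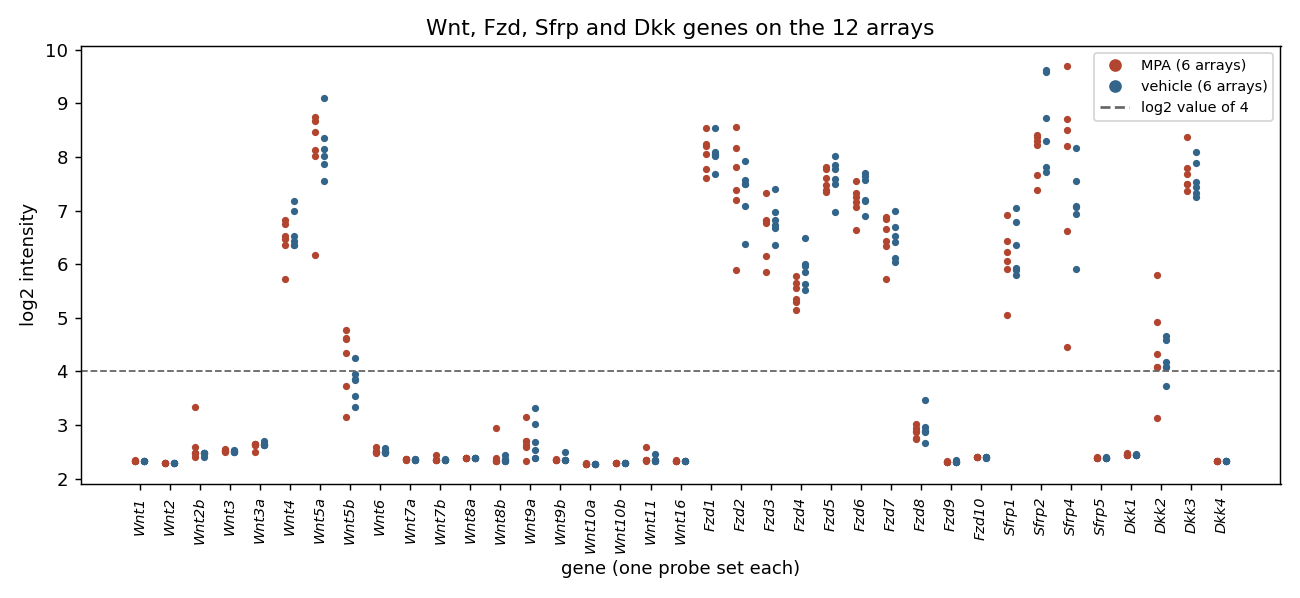
Log2 signal of all 37 members on each of the 12 arrays, by family, with MPA arrays in red, vehicle arrays in blue and the filter value of 4 as a line. The 14 tested members lie above the line on 10 or more arrays, Wnt5b straddles it, and the other 22 lie below it throughout.

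Promoter sequence is shown for 3 members that stand at opposite ends of the relation to stromal signal given with the correlations: Fzd7 and Dkk2, whose signal rose with it, and Wnt4, whose signal ran the other way. They are the 2 highest and the lowest in that relation among the 7 tested members with an entry in the RefSeq promoter table (build GRCm38.p6). Each run is the 250 bases before the annotated start, 5′ to 3′ on the plus strand, with matches to the searched motifs in capitals. They lie at chr1:59481897-59482146 (Fzd7), chr3:132085042-132085291 (Dkk2) and chr4:137277385-137277634 (Wnt4).
Fzd7: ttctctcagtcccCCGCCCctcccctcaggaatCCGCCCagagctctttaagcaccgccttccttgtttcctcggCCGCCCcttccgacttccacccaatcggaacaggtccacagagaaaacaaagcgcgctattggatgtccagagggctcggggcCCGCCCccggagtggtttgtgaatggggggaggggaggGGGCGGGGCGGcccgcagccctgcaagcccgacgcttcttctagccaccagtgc
Dkk2: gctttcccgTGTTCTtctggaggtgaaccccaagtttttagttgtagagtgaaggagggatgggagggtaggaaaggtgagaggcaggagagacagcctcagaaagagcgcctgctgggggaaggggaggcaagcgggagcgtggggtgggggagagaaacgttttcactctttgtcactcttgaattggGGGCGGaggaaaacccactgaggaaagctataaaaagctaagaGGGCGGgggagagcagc
Wnt4: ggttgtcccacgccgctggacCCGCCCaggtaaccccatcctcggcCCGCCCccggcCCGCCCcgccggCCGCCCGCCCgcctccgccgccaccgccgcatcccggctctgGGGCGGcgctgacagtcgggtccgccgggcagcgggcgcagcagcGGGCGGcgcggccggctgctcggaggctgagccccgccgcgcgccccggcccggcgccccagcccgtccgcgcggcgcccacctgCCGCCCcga

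The motifs were searched on both strands: the TCF/LEF core in the form CTTTGA (reverse TCAAAG), the steroid receptor half-site AGAACA (reverse TGTTCT) and the GC box GGGCGG (reverse CCGCCC). Other forms of these motifs were not searched. Matches of the GC box that overlap were each counted. The Fzd7 window held 6 GC boxes and the Wnt4 window 8, with no match to CTTTGA or AGAACA. The Dkk2 window held 2 GC boxes, which begin 60 and 17 bases before the start, and 1 steroid half-site 241 bases before it. The GC content was 65.2% for Fzd7, 55.6% for Dkk2 and 85.2% for Wnt4, against a median of 52.4% over 32851 promoters, of which 0.1% exceeded that of Wnt4. GC boxes occurred in 32.7% of all promoters and in 5 of the 7 members, CTTTGA in 13.8% and in 1 of 7, and the half-site in 16.1% and in 1 of 7. Such matches are a description of these letters and not evidence of a bound site.

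None of the 14 tested members was called between MPA and vehicle by limma at an adjusted p under 0.05, where the background over 8795 genes was 0.0114% (1 gene, Wfdc15b, higher after MPA). At an unadjusted p under 0.05 there was 1 member of 14 (7.14%), Fzd4, lower after MPA, against 5.00% of all genes (1.80% lower and 3.21% higher). The exact permutation test with adjustment over all genes also called none of the 14 members, and none of the 8795 genes. The groups overlapped for all 14 members; they did not for 0.341% of all genes. Of the 14 differences (MPA minus vehicle), 5 were above 0 and 9 below, where 56.3% of all genes were above 0. The median was -0.10, against 0.02 over all genes. The median within-group SD of the members was 0.42 on the log2 scale, against 0.25 over all genes tested. Fkbp5, a textbook target of progestin and glucocorticoid receptors, had a log2 signal of 7.68 to 8.18 after MPA and 6.45 to 7.29 after vehicle, without overlap. Its log2 difference was 0.86 with an SE of 0.14, and its adjusted p by limma was 0.149.

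The ligand Wnt4, which in the mouse uterus acts in stromal decidualisation and is a known target of the progesterone receptor, had a log2 signal of 5.72, 6.50 and 6.83 (lowest, median and highest of 6) after MPA. After vehicle the values were 6.36, 6.48 and 7.19. The groups overlapped with nearly the same median; MPA 5 was the lowest array and vehicle 5 the highest. The difference was -0.20 (SE 0.20, 95% interval -0.64 to 0.24), and without MPA 5 it was -0.0557. The second Wnt4 probe set past the filter had the opposite sign, at 0.33, and its correlation with the first over the arrays was 0.494, so no direction is given for this gene.

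Wnt5a, the ligand of the planar polarity branch made in the mesenchyme of many organs, was at 6.18, 8.29 and 8.74 after MPA and at 7.55, 8.08 and 9.11 after vehicle. A single MPA array, MPA 2, was far below the rest: the next MPA array was at 8.02. The other MPA arrays lay within the vehicle range. The difference was -0.14 (SE 0.41, interval -1.03 to 0.74), and without MPA 2 it was 0.23. The other 2 Wnt5a probe sets past the filter gave 0.03 and 0.07 and followed the first closely (r = 0.963 and 0.914 over the arrays).

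The receptor with the smallest p of the family was Fzd4, which also binds Norrin and is best known from the retinal and brain vasculature. Its log2 signal was 5.15, 5.45 and 5.79 after MPA and 5.51, 5.91 and 6.48 after vehicle. All 6 MPA arrays were below the vehicle mean, 3 of them below every vehicle array, and 4 vehicle arrays were above every MPA array. The means were 5.46 ± 0.24 (SD, n = 6) and 5.91 ± 0.34 (SD, n = 6), a difference of -0.44 (SE 0.16, interval -0.80 to -0.09), or a vehicle signal 1.36-fold that after MPA. The other Fzd4 probe sets were not past the filter (differences of -0.25 and -0.09), so this value rests on 1 probe set. The limma p for the Fzd4 difference was 0.0183 before and 0.951 after adjustment over all genes, so it did not pass the test. The exact permutation p was 0.024, adjusted 0.903, with the limit on adjustment given above.

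The remaining receptors overlapped between the groups and had an adjusted p of 1.00 by limma. Fzd1 had log2 values of 7.61, 8.14 and 8.53 after MPA and 7.68, 8.04 and 8.55 after vehicle, with a difference of 0.00 (SE 0.17). Fzd2, a receptor for Wnt5a in mouse and human cells, spread widely, with 5.89, 7.60 and 8.55 after MPA and 6.38, 7.49 and 7.93 after vehicle; the lowest arrays were MPA 2 and vehicle 4. Its highest array was 6.33-fold above its lowest, and the difference between groups was 0.17 (SE 0.40, interval -0.69 to 1.04). These intervals are wide enough to hold changes in either direction.

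Fzd3 and Fzd6, which act together in planar polarity of mouse hair and neural tissue, shared a pattern. Fzd3 was at 5.85, 6.79 and 7.33 after MPA and 6.37, 6.77 and 7.40 after vehicle, with a difference of -0.20 (SE 0.24). Fzd6 was at 6.64, 7.20 and 7.54 after MPA and 6.90, 7.38 and 7.70 after vehicle, with a difference of -0.20 (SE 0.17). Without MPA 5 the differences of Fzd3 and Fzd6 were -0.0476 and -0.0993. For both receptors the lowest array was MPA 5, the highest MPA array was MPA 2, and vehicle ran from vehicle 2 to vehicle 4. All 6 Fzd3 probe sets past the filter were lower after MPA, by between -0.09 and -0.33, which are not independent measurements.

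Fzd5, a receptor of epithelia such as the gut, was the receptor with the narrowest spread after MPA: 7.35, 7.55 and 7.81, against 6.97, 7.68 and 8.03 after vehicle. Its difference was -0.05 (SE 0.16, interval -0.40 to 0.31). Fzd7, a receptor associated with stem cells of the gut, was at 5.72, 6.55 and 6.88 after MPA and 6.05, 6.48 and 7.0 after vehicle, with a difference of 0.01 (SE 0.21). MPA 2 was again the lowest array for Fzd7.

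**Figure D2:**
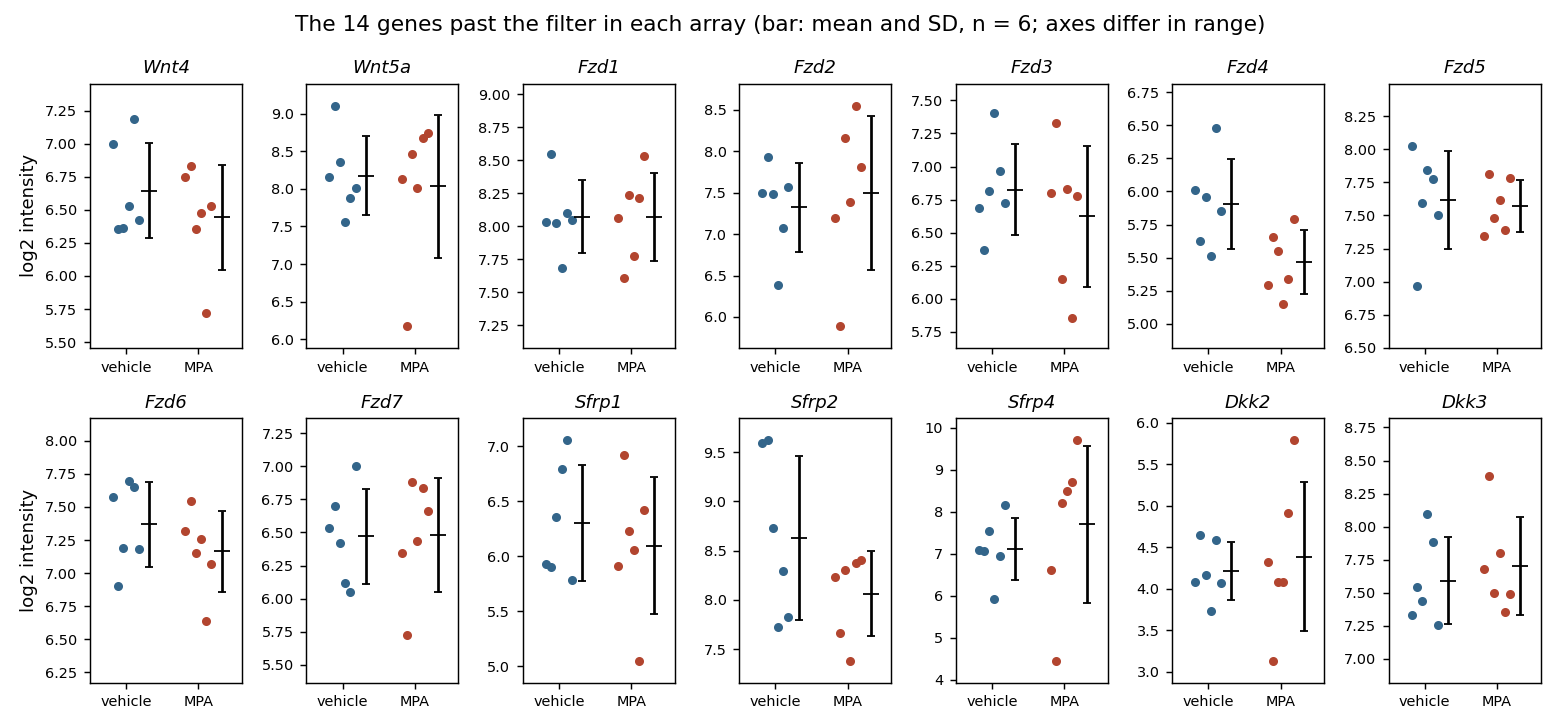
Log2 signal of the 14 tested members on each array after MPA and after vehicle, 6 arrays each, with the group mean and SD. The groups overlap for every member; Fzd4 and Sfrp2 are the members for which no MPA array lies above the vehicle mean, and MPA 2 lies far below the other MPA arrays for Wnt5a and Sfrp4.

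Among the antagonists, Sfrp4, a stromal inhibitor of Wnt signals in the endometrium, had the widest spread of the 14 members. It was at 4.45, 8.35 and 9.70 after MPA and at 5.92, 7.07 and 8.16 after vehicle. MPA arrays stood on both sides of the vehicle group, with 4 above every vehicle array and 1, MPA 2, below every one. The highest array, MPA 6, was 38.0-fold above MPA 2, and the within-group SD of 1.43 ranked 56 of 8795 genes. The difference was 0.58 (SE 0.74, interval -1.04 to 2.20); without MPA 2 it was 1.23, and without MPA 6 it was 0.18.

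Sfrp2, a secreted antagonist of mesenchyme, was at 7.38, 8.27 and 8.41 after MPA and 7.73, 8.51 and 9.62 after vehicle. All 6 MPA arrays were below the vehicle mean, and 3 vehicle arrays, at 8.73, 9.59 and 9.62, were above every MPA array; the other 3 lay within the MPA range. The difference was -0.57 (SE 0.35, interval -1.33 to 0.19), which does not exceed the spread between replicates. It was -0.11 within station 2, one of 3 fluidics stations, and -0.37 without vehicle 2 or -0.38 without vehicle 1. Sfrp1 was at 5.05, 6.14 and 6.92 after MPA and 5.79, 6.14 and 7.05 after vehicle, with equal medians and a difference of -0.21 (SE 0.30). Its other probe sets past the filter gave -0.11 and 0.16.

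Dkk2, an antagonist whose action depends on the Kremen co-receptors, was near the filter, at 3.13, 4.21 and 5.79 after MPA and 3.73, 4.12 and 4.65 after vehicle. MPA 2 was its lowest and MPA 6 its highest array, and the difference was 0.17 (SE 0.36). Dkk3, a divergent member that does not block Wnt signals as Dkk1 does, was at 7.36, 7.59 and 8.38 after MPA and 7.26, 7.49 and 8.10 after vehicle. Here the order was the opposite: MPA 2 was the highest array and MPA 5 the lowest MPA array, and the difference was 0.11 (SE 0.19). The second Dkk3 probe set gave 0.05.

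**Figure D3:**
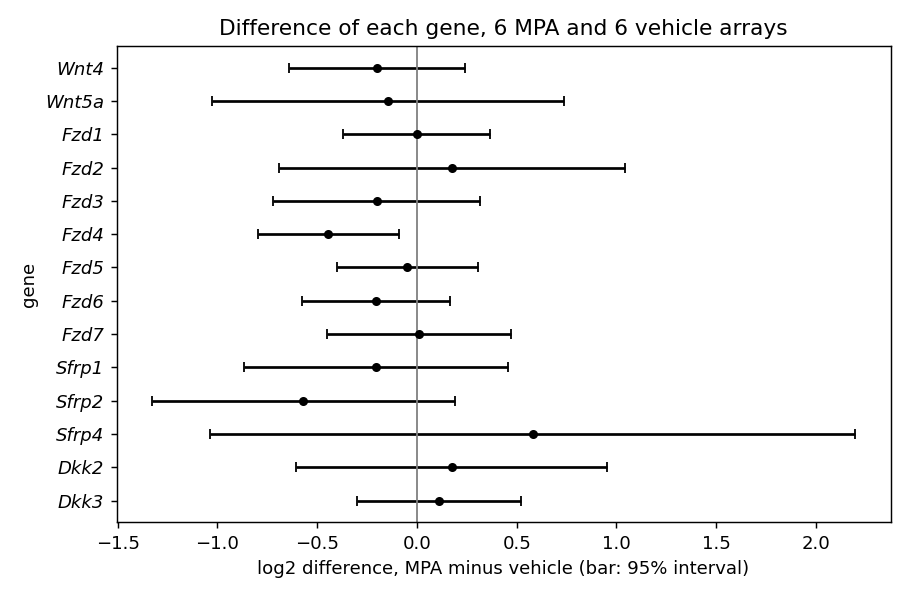
Difference in log2 signal, MPA minus vehicle, of the 14 tested members with the 95% interval from limma (6 against 6 arrays). The interval of Fzd4 excludes 0 before adjustment over all genes, and those of the other 13 members hold 0.

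The groups could not be freed of a technical layout. Fluidics station 1 had washed vehicle 1 to vehicle 4, station 4 MPA 3 to MPA 6, and only station 2 held both groups (MPA 1, MPA 2, vehicle 5 and vehicle 6). Within station 2, which is also what the fit with the station as a block estimates, 6 members took the opposite sign from the comparison of all arrays: Fzd2 (-0.78), Fzd3 (0.22), Fzd6 (0.01), Fzd7 (-0.49), Sfrp4 (-2.01) and Dkk2 (-0.60). Station 2 holds MPA 2, the array that was lowest of all 12 for 6 members and highest for 1. None of these values was called, and the part of the station in them was not tested.

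Marker genes of other cell types also moved between arrays, and the score of a marker list is the mean of its genes' log2 deviations from their means over the 12 arrays. The stromal fibroblast score, from 11 of 11 genes past the filter, ran from -1.74 to 0.85 after MPA and from -0.82 to 0.34 after vehicle. The basal epithelial score (9 of 10 genes) ran from -0.92 to 0.48 and from -0.19 to 0.34, and the smooth muscle score (9 of 9) from -1.77 to 0.91 and from -0.69 to 0.49. MPA 2 stood apart, with the stromal score of -1.74 against 0.10 for the next MPA array, and MPA 5 had the highest stromal and the lowest basal score. Cornified epithelial markers ran from -2.09 to 0.20 after MPA and -0.17 to 0.59 after vehicle (6 of 11 genes, with Krt1 and Sprr1b not past the filter). Skeletal muscle markers (6 of 8) ran from -1.26 to 0.29 and from -0.55 to 2.27. The trophoblast and fetal list (2 of 8, the fetal genes Hbb-y and Afp) ran from -2.38 to 0.22 and from -0.46 to 2.87. Its trophoblast genes, Tpbpa and Prl3d1 among them, were not past the filter or not matched to a probe set. The score thus holds no trophoblast gene. Macrophage markers (6 of 11, with Adgre1 and Cd68 not past the filter) ran from -1.19 to 1.00 and from -0.79 to 0.16, and of the endothelial list only Tek of 8 genes was past it. Reproductive tract markers were present (6 of 7, without Hoxa13). The part of these cell types in the group differences was not tested. In such bulk tissue fewer cells of a type and less RNA per cell cannot be told apart.

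The signals of most members followed the stromal, basal epithelial or smooth muscle score across the 12 arrays. Over 42 correlations (14 members with 3 scores, none of whose genes is a member), 27 passed a Benjamini-Hochberg adjusted permutation p under 0.05: 10 with the stromal score (6 above 0 and 4 below), 8 with the basal score (5 and 3) and 9 with the smooth muscle score (5 and 4). When the 2 arrays farthest from the median score were left out, all 27 kept their sign, but only 16 of the 42 relations passed. These 16 are not all among the 27. Wnt5a with the basal score, for example, passed by r only without the farthest arrays (adjusted permutation p = 0.0143). Fewer than 16 of the 27 therefore passed again. Many other genes did the same, since 20.6% of 8784 genes had an absolute r with the stromal score at least as high as the lowest called among the members (0.711); of the members, 71.4% did. For the basal score these shares were 28.1% and 64.3%, and for the smooth muscle score 25.2% and 64.3%. Each cut-off was taken from the called members, so the members' shares follow in part from that choice. The median absolute r with the stromal score was 0.760 for the members and 0.444 for all genes. No r was taken within a fluidics station, since each holds 4 arrays.

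The members that rose with the stromal score were Wnt5a, its receptor Fzd2, Fzd7, Fzd1 and the antagonists Sfrp4 and Dkk2. Fzd2 had r = 0.940 (permutation p = 3e-05, adjusted 4.2e-04) and rho = 0.930 (permutation p = 7e-05). It kept r = 0.822 when MPA 2 and vehicle 4, the farthest arrays, were left out. Sfrp4 had r = 0.911 (permutation p = 8e-05, adjusted 6.72e-04) and rho = 0.867 (permutation p = 5.9e-04); r was 0.761 without them. Wnt5a had r = 0.909 (permutation p = 1.8e-04, adjusted 9.45e-04) and rho = 0.832 (permutation p = 0.00133), with r = 0.639 without them. For Fzd7 r was 0.876 (permutation p = 1.6e-04, adjusted 9.45e-04) and rho 0.846 (permutation p = 9.6e-04), with r = 0.730 without them. Dkk2 (r = 0.739) and Fzd1 (r = 0.729) passed too, but fell to r = 0.461 and 0.422 without those arrays and so rest largely on them. Without those arrays Fzd2 (adjusted permutation p = 0.0143), Sfrp4 (0.030) and Fzd7 (0.043) still passed, and Wnt5a (0.0884) did not.

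The members that fell as the stromal score rose were Fzd3, Fzd6, Sfrp1 and Dkk3. Fzd3 had r = -0.792 (permutation p = 0.00208, adjusted 0.00546) and rho = -0.804 (permutation p = 0.00265), and r = -0.666 with the farthest arrays left out. Fzd6 had r = -0.780 (permutation p = 0.00234, adjusted 0.00578) and rho = -0.930 (permutation p = 5e-05), with r = -0.919 without them. For Sfrp1 r was -0.711 (permutation p = 0.0103, adjusted 0.0181) and rho -0.601 (permutation p = 0.0428, adjusted 0.0603), with r = -0.602 without them. Dkk3 had r = -0.842 (permutation p = 0.00132, adjusted 0.00396) and rho = -0.601 (permutation p = 0.0431, adjusted 0.0603), and r = -0.423 without MPA 2 and vehicle 4, on which its relation largely rests. Without those arrays Fzd6 still passed (adjusted permutation p = 0.00525), while Fzd3 (0.0799), Sfrp1 (0.104) and Dkk3 (0.274) did not. Wnt4 did not pass with this score by r (-0.602, permutation p = 0.0461, adjusted 0.0624) but did by rho (-0.734, permutation p = 0.00877, adjusted 0.0167), and had r = -0.898 without the farthest arrays.

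The basal epithelial score, from genes such as Krt5, Krt14 and Trp63 of the lowest epithelial layer, gave the mirror image: all 14 members had the opposite sign to that with the stromal score. Fzd3 had r = 0.910 (permutation p = 2e-05, adjusted 4.2e-04) and rho = 0.888 (permutation p = 2.3e-04), with r = 0.845 without MPA 2 and MPA 5, the farthest arrays here. Fzd6 had r = 0.887 (permutation p = 6e-05, adjusted 6.3e-04) and rho = 0.881 (permutation p = 3.2e-04), with r = 0.860 without them. Wnt4, whose promoter is shown above with Fzd7 and Dkk2, had r = 0.830 (permutation p = 0.00174, adjusted 0.00487) and rho = 0.783 (permutation p = 0.00397), with r = 0.630 without them. For Sfrp1 r was 0.832 (permutation p = 9.5e-04, adjusted 0.00336) and rho 0.685 (permutation p = 0.0171), with r = 0.581 without them. Without MPA 2 and MPA 5, Fzd3 (adjusted permutation p = 0.00924) and Fzd6 (0.0128) still passed, and Wnt4 (0.0884) and Sfrp1 (0.121) did not. The second Wnt4 probe set past the filter had r = 0.494 with the one used here, and its relation to the scores was not tested.

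At the other end, Fzd2 had r = -0.877 with the basal score (permutation p = 2.1e-04, adjusted 9.8e-04) and rho = -0.972 (permutation p = 2e-05), and r = -0.915 with the farthest arrays left out. For Fzd7 r was -0.747 (permutation p = 0.00484, adjusted 0.00968) and rho -0.916 (permutation p = 9e-05), with r = -0.839 without them. Sfrp4 had r = -0.671 (permutation p = 0.0214, adjusted 0.0346) and rho = -0.797 (permutation p = 0.00302), with r = -0.629 without them, which no longer passed (adjusted permutation p = 0.0884). Wnt5a did not pass by r (-0.688, permutation p = 0.0373, adjusted 0.054) but did by rho (-0.818, permutation p = 0.00175, adjusted 0.00565), and had r = -0.829 without MPA 2 and MPA 5. Fzd4, Fzd5 and Sfrp2 passed with none of the 3 scores by r; their r with the stromal score was -0.208, -0.501 and 0.277. Fzd5 passed by rho with the smooth muscle score (rho = -0.867, permutation p = 5.8e-04, adjusted 0.00275; r = -0.610, adjusted 0.0573).

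**Figure D4:**
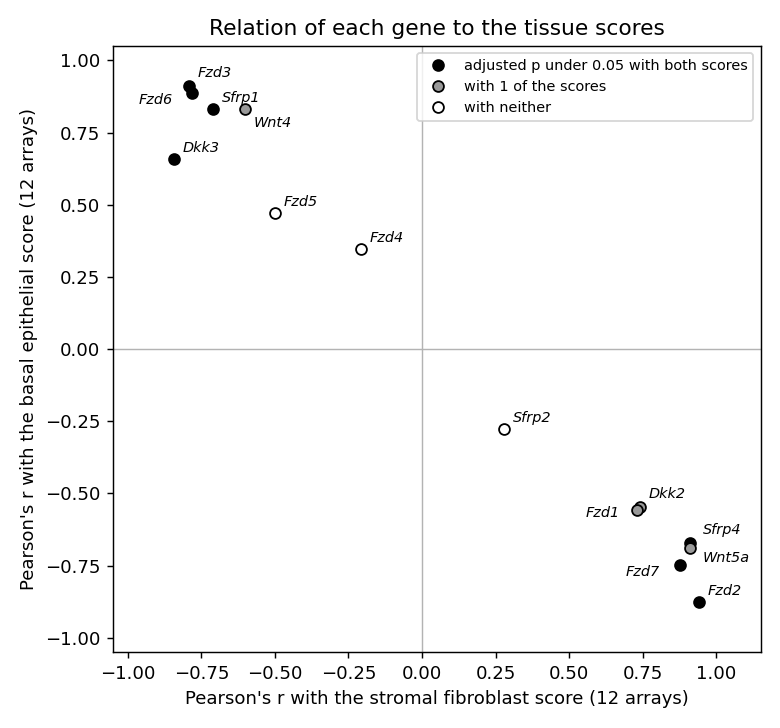
Each member's correlation (Pearson's r over 12 arrays) with the stromal fibroblast score on the x axis against that with the basal epithelial score on the y axis; filled points passed with both scores, grey with 1 and open with neither. Wnt5a, Fzd1, Fzd2, Fzd7, Sfrp4 and Dkk2 lie at the lower right, Wnt4, Fzd3, Fzd6, Sfrp1 and Dkk3 at the upper left, and Fzd4, Fzd5 and Sfrp2 nearer to 0.

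The smooth muscle score ran with the stromal score (r = 0.967, permutation p = 1e-05, which is the least possible with 100000 draws; rho = 0.811; r = 0.863 without the farthest arrays). All 14 members had the same sign with both, though Dkk2 passed with the stromal score and not with this one (r = 0.599, adjusted permutation p = 0.0697). The highest r was that of Fzd2 (0.925, adjusted permutation p = 4.2e-04), then Wnt5a (0.893), Fzd7 (0.886) and Sfrp4 (0.797). The lowest was that of Dkk3 (-0.848, adjusted permutation p = 0.00384), then Fzd3 (-0.820), Sfrp1 (-0.784) and Fzd6 (-0.769). Without MPA 2 and vehicle 4, Fzd2, Fzd7, Fzd3, Sfrp1 and Fzd6 had an r of 0.796, 0.763, -0.787, -0.801 and -0.922, while Wnt5a, Sfrp4 and Dkk3 had 0.548, 0.389 and -0.475 and no longer passed. Wnt4, which did not pass by r over all arrays (-0.634, adjusted permutation p = 0.0522), had r = -0.945 without MPA 2 and vehicle 4. The stromal and basal scores opposed each other (r = -0.781, permutation p = 0.00754; rho = -0.951, permutation p = 1e-05; r = -0.809 without the farthest arrays).

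With MPA 2 and MPA 5 left out, a choice made after seeing the data, 17 of the 42 relations passed, and each of the 27 called over all arrays kept its sign. The 17 include relations that had not passed by r over all arrays. These are Wnt5a with the basal score (adjusted permutation p = 0.0131) and Fzd5 with the smooth muscle score (0.047). Over the arrays' deviations from their group means 29 of 42 passed. These deviations pool both groups and keep the distance of MPA 2 from the other MPA arrays. No r was taken within MPA or vehicle alone, so it is not shown that the relations hold in each group. These relations share the same 12 libraries, and whether a member is expressed in the cell type it followed was not tested.

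Members also followed one another. Of 91 pairs, 31 passed an adjusted permutation p under 0.05, 19 with r above 0 and 12 below. The share of pairs that pass over all genes was not computed, so this count has no background beside it. For pairs, the farthest arrays were the 2 farthest from the median of the first gene named, so they differ between pairs. All 31 kept their sign without them. Wnt5a and Fzd2 ran together (r = 0.888, permutation p = 1.5e-04, adjusted 0.00341; rho = 0.860; r = 0.882 without the farthest arrays), as did Wnt5a and Fzd1 (r = 0.848, permutation p = 1e-04, adjusted 0.00303; rho = 0.804; r = 0.838). Wnt4, by the 1 probe set used, and Fzd6 also ran together (r = 0.846, permutation p = 4e-04, adjusted 0.00533, and r = 0.669 without the farthest arrays). Fzd5, which passed with no score by r, ran with Fzd6 (r = 0.709, adjusted permutation p = 0.0306). The receptors Fzd2 and Fzd3 opposed each other (r = -0.935, permutation p = 5e-05, adjusted 0.00303; rho = -0.944; r = -0.938). Without MPA 2 and MPA 5 only 3 of the 91 pairs passed, so the count of pairs rests on those arrays; with 10 arrays in place of 12 the test also has fewer points.

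**Figure D5:**
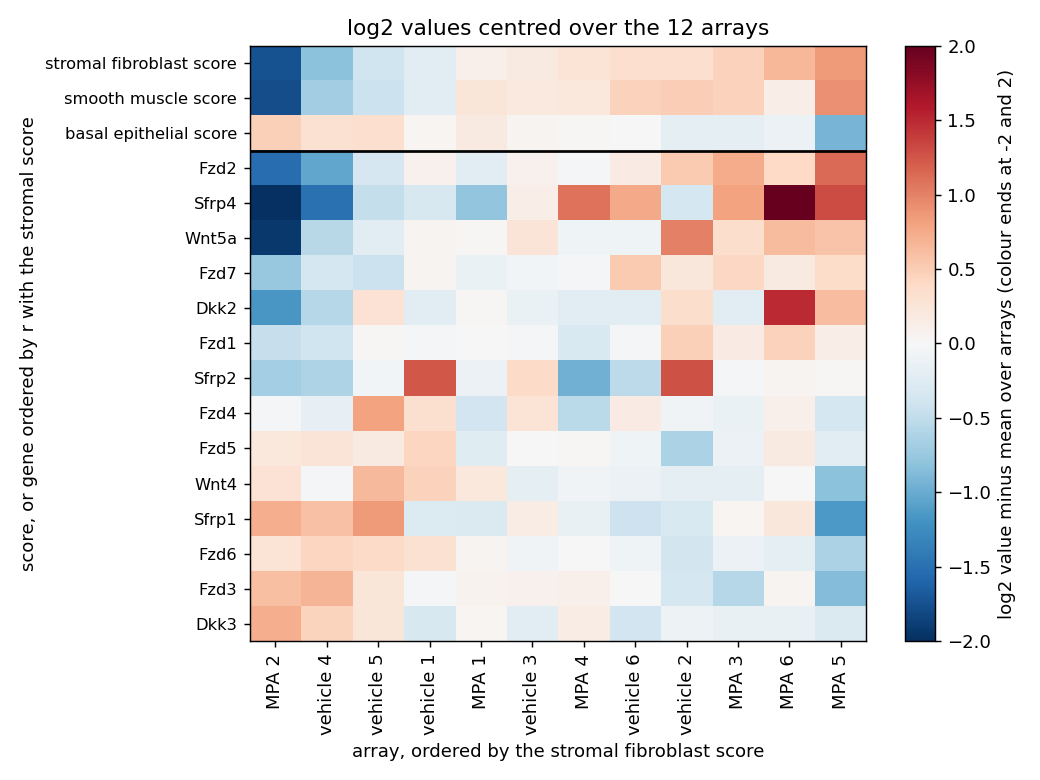
Log2 deviation of each of the 14 tested members from its mean over the 12 arrays, with the 3 marker scores in the top rows and the arrays in columns ordered by the stromal score; colours end at -2 and 2. MPA 2, at the left, shows low Wnt5a, Fzd2, Fzd7, Sfrp4 and Dkk2 with high Wnt4, Fzd3, Fzd6, Sfrp1 and Dkk3 among the MPA arrays, and MPA 5, at the right, shows low Wnt4, Fzd3, Fzd6, Sfrp1 and Dkk3 with high Fzd2.

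The rest of the pathway showed no called difference either. Of 69 genes in 8 lists, 41 were past the filter, 24 with a difference above 0 and 17 below, where 56.3% of all genes were above 0. Of these 41, limma called 0, and 3 (7.32%) had an unadjusted p under 0.05, against 5.00% of all genes. Their median difference was 0.02. The transducer beta-catenin (Ctnnb1) differed by -0.08 (SE 0.07), and Axin2, a feedback target used as a readout of beta-catenin activity and above the filter value on 9 arrays, by -0.10 (SE 0.37). The targets and inhibitors Lef1, Nkd1, Lgr5, Wif1, Frzb and Notum, the receptor Ror1 and the ligand Rspo3 were not past the filter. Of the beta-catenin target list 8 of 14 genes were tested, 4 with a difference above 0 and 4 below, with a median of 0.01.

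Wnt secretion needs Porcn, which attaches the lipid, and Wls, which carries the ligand to the surface. Porcn was at 5.31, 5.67 and 6.00 after MPA and 5.61, 6.03 and 6.65 after vehicle, with overlap and a difference of -0.45 (SE 0.21). Wls differed by 0.07 (SE 0.16). The co-receptors Lrp5 and Lrp6 differed by 0.05 (SE 0.09) and 0.10 (SE 0.08), the Dkk receptor Kremen1 by 0.09 (SE 0.11) and the Wnt5a co-receptor Ror2 by 0.39 (SE 0.41). For none of these did the difference pass the test. Lrp5 lay close to the filter value of 4, with a median log2 signal of 4.03 in both groups and a highest value of 4.49.

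All 5 tested genes of the R-spondin arm, whose ligands raise Wnt receptor levels at the surface, had a difference above 0, with a median of 0.12. Of all genes 56.3% were above 0, and none of the 5 passed. The ligand Rspo1 was at 4.15, 6.90 and 8.30 after MPA and 4.79, 6.32 and 7.36 after vehicle, a difference of 0.46 (SE 0.63). Rnf43, a ligase that removes Frizzled, differed by 0.20 (SE 0.12). Rnf43 and Znrf3 of this arm lay near the filter value, above it on 11 and 9 arrays. In the other lists the gene with the smallest p was Gsk3a of the cytoplasmic kinases (-0.19, SE 0.08, adjusted p 0.99 by limma), the co-repressor Tle1 (0.33, SE 0.22), the target Nkd2 (-0.51, SE 0.23), the secreted inhibitor Igfbp4 (0.02, SE 0.23) and the planar polarity protein Vangl2 (-0.19, SE 0.13). Apcdd1, a membrane inhibitor, differed by -0.01 (SE 0.29).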

How the data were processed

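Total cervical RNA was measured on 12 Affymetrix arrays. The authors deposited intensity values on a linear scale, from 4.39 to 77974, covering 45101 probe sets. GCRMA is the tool named in the submitters' processing notes, and the sources used here give no version. Trizol and columns were used for extraction, and the RNA was amplified before labelling, per the labels' protocols. Scan files with probe-level intensities were not analysed here, so detection was judged from the deposited intensity alone, and the number of arrays limits precision. GCRMA leaves a floor, under which differences cannot be seen. The log2 of the deposited intensity was taken with no pseudocount.

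The platform annotation gave 1 symbol to 34958 probe sets, several to 932 and did not list 9211; the probe set with the highest mean stood for its gene, and all 37 members matched RefSeq. Groups and replicate numbers came from titles. Genes above log2 4 on at least 6 arrays (8795) were fitted with limma 3.58.1 (lmFit, eBayes; R 4.3.3) without covariates, and p-values were adjusted by Benjamini-Hochberg over all of them. Exact two-sided permutation tests and correlations with 100000 permutation draws used numpy 2.4.6. The fit was tested on simulated data. Differences are MPA minus vehicle, with the moderated SE.

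Members, lists and tests were chosen with earlier results of these data known. Every member past the filter is named with its values; of the pathway lists, a fixed set of genes and the gene with the smallest p in each list are named, and of the correlations the 4 highest and 4 lowest for each score. No 2 arrays held identical values. The 3'/5' log2 ratio of control probe sets is a measure of RNA and labelling quality. For Gapdh it was 4.14 to 5.61 after MPA, highest on MPA 6, and 4.25 to 4.94 after vehicle. For beta-actin it was also highest on MPA 6, at 1.25, with 0.71 on the next array, MPA 4. MPA 6 was the highest array for Sfrp4 and Dkk2, and the part of RNA quality in those values was not tested. Alternatives covered the filter, probe set choice, normalization, pseudocount, intensity trend, array weights, station, replicate block, left-out arrays and the stromal score.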

Additional observations from a re-analysis of the deposited data

Results flagged for a closer look

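Among 80 groups of 6 arrays examined (members, named pathway genes and the 10 marker scores in each treatment group), 13 held an array far from the others, by Dixon's criterion on the gap as a share of the range; chance flags about 1 in 20 groups. Of the members, only Wnt5a did so: MPA 2 was at a log2 signal of 6.18 against 8.02 for the nearest MPA array. MPA 2 was also the outlying array for the stromal fibroblast score (-1.74, nearest 0.10), the smooth muscle score (-1.77, nearest 0.13), the macrophage score (-1.19, nearest 0.21), the reproductive tract score (-0.91, nearest 0.12), Gsk3a (5.22, nearest 5.40), Igfbp4 (10.62, nearest 11.42), Lrp5 (4.49, nearest 4.04) and Vangl2 (6.70, nearest 6.34). MPA 5 was low for the cornified epithelial score (-2.09, nearest -0.41). In the vehicle group the endothelial score, which rests on Tek alone, was low in vehicle 4 (-0.89, nearest -0.01), Kremen1 was high in vehicle 5 (7.12, nearest 6.89) and Lrp5 was high in vehicle 4 (4.21, nearest 4.05). These groups share arrays, so the outlying values of MPA 2 are not independent of each other.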

How the results depend on the processing

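No member was called by limma under any alternative run, with 0 to 2 of the 14 at an unadjusted p under 0.05, and Fzd4 and Sfrp2 were the 2 members that never changed sign, though that of Sfrp2 shrank from -0.57 to -0.11 with the station as a block and within station 2; Fzd4 had no value when all probe sets of a gene were averaged, since it fell below the filter. The single gene called over all genes was lost, leaving 0, without the filter (626 at an unadjusted p under 0.05), within station 2 (470), with the replicate block (276) and without MPA 2 and MPA 5 (636); leaving out 1 array gave 0 to 1, with 1 only when vehicle 1 was left out. Same-numbered arrays did not deviate together (r between -0.60 and 0.05, and 0 of 6 best with their own number), so the replicate block joins arrays that share only a number. The relations with marker scores that passed numbered 27 over all arrays, 16 without the 2 farthest arrays and 17 without MPA 2 and MPA 5. Both smaller counts include relations that had not passed over all arrays, such as Wnt5a with the basal score. Fewer of the 27 therefore passed again than these counts show. The count of 31 pairs became 3 without MPA 2 and MPA 5. The median member difference of -0.10 ran from -0.15 to -0.04 over the left-out arrays. Signs turned for Wnt4 (0.0663), Wnt5a (0.0228) and Fzd6 (0.0181) with the mean of all probe sets, Fzd7 (-0.0144) with quantile normalization and Wnt5a (0.0104) with array weights. They turned for Fzd2 (-0.78), Fzd3 (0.22), Fzd6 (0.0128), Fzd7 (-0.49), Sfrp4 (-2.01) and Dkk2 (-0.60) with the station as a block and within station 2, for Fzd2 (-0.0199) and Fzd7 (-0.0839) with the stromal score as covariate, and for Wnt5a (0.16) and Fzd1 (0.0787) without MPA 2 and MPA 5. Leaving out 1 array gave Wnt4 -0.28 to -0.0557, Fzd3 -0.34 to -0.0476, Fzd4 -0.52 to -0.33, Fzd6 -0.30 to -0.0993, Sfrp2 -0.75 to -0.37 and Sfrp4 0.18 to 1.23, with no change of sign, and Wnt5a -0.29 to 0.23, Fzd1 -0.0944 to 0.0934, Fzd2 -0.036 to 0.50, Fzd5 -0.18 to 0.0333, Fzd7 -0.0735 to 0.16, Sfrp1 -0.37 to 0.0042, Dkk2 -0.11 to 0.43 and Dkk3 -0.025 to 0.21. None of these member differences was called, and the causes were not tested. The alternatives with the stromal score and without MPA 2 and MPA 5 were chosen after seeing the data.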
